A study of Mus musculus with 3 samples.

Results

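Regulators of G protein signaling (RGS proteins) shorten the signal of G protein-coupled receptors. This report describes 8 RGS genes, Rgs1, Rgs2, Rgs4, Rgs5, Rgs7, Rgs16, Rgs18 and Rgs20, in cells of the mouse mitral valve. They were chosen by name, with earlier results of these data known, from the 3264 genes that the matrix measured throughout. Their levels were compared between fibroblasts, endothelial cells and cells with RNA of Ptprc, the pan-leukocyte antigen CD45. All 8 had at least 1 UMI (unique molecular identifier, which stands for 1 captured RNA molecule). Totals over all cells ran from 20 UMIs for Rgs4 and 105 for Rgs18 to 703 for Rgs16 and 2270 for Rgs7.

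An activated receptor loads a G protein alpha subunit with GTP, and the subunit stays active until the GTP is hydrolysed. RGS proteins bind the active alpha subunit and speed up this hydrolysis, which ends signaling by the alpha and beta-gamma subunits alike. Rgs1, Rgs2, Rgs4, Rgs5, Rgs16 and Rgs18 encode small proteins of the R4 family. Rgs7 belongs to the R7 family, whose proteins pair with the beta subunit Gnb5 and are best known from neurons, and Rgs20 belongs to the RZ family, named for its action on the alpha subunit Gnaz.

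The 3 samples listed with the series were mitral valves of B6.129-Fbn1tm2Rmz/J mice with library names mgR/mgR, sequenced with the 10x Genomics 3' v3 chemistry. The mgR allele lowers expression of fibrillin-1, the microfibril protein mutated in Marfan syndrome, and the mice were 12 weeks old. The study also profiled WT mice and mgR mice given rapamycin, and it prepared both cells and nuclei, while the barcodes carried no mouse, genotype or library. The 16383 cells of the matrix were therefore treated as 1 sample that may hold several genotypes, cells here stands for either preparation, and no test across mice could be made. The matrix listed genes of chromosomes 1 to 3, and RGS genes of other chromosomes were not analysed here.

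A median of 5349 UMIs was recovered per cell (range 503 to 23127), and the barcodes fell into 2 runs, the first with 14222 cells and the second with 2161, which had 11 barcodes in common. Fibroblasts were cells with UMIs of at least 2 of Prrx1, Col3a1 and Dpt and none of Egfl7 (3149 cells), split by Scn7a into 791 positive and 2358 negative cells. Endothelial cells had Egfl7 and fewer than 2 of those genes (8966 cells). They were assigned to the gene pair with the most UMIs, giving 3309 Prox1/Kif26b, 1093 Tmem163/Kcnh1 and 2633 Selp/Fmo2 cells and 1931 unsplit cells. Ptprc cells had Ptprc, no Egfl7 and fewer than 2 fibroblast genes (470 cells), with Mrc1 in 303 and without it in 167. Markers that the gates did not use followed the names: all 9 fibroblast markers were higher in fibroblasts than in endothelial cells (8 by at least 2-fold, Postn 1.30-fold), all 7 endothelial markers were at least 4.59-fold higher in endothelial cells, and all 10 leukocyte markers were at least 38.9-fold higher in Ptprc cells than in fibroblasts and endothelial cells. A further 421 cells carried Egfl7 together with 2 or more fibroblast genes and 3377 met no gate. These were kept out of the comparisons.

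All 8 genes lie on chromosome 1 (GRCm38, GENCODE M21). Rgs20 is at chr1:4909576-5070285 on the minus strand. Rgs2 (chr1:143999338-144004161), Rgs1 (chr1:144242296-144249242) and Rgs18 (chr1:144752683-144775435) follow each other on the minus strand, with Rgs13 as the next gene 134 kb from Rgs2 and 64.9 kb from Rgs1, and with 503 kb from Rgs1 to Rgs18. Rgs16 is at chr1:153740349-153745468 on the plus strand. Rgs5 (chr1:169655501-169695813, plus) and Rgs4 (chr1:169741477-169747642, minus) are 45.7 kb apart with 0 protein-coding genes between them, and Rgs7 (chr1:175059087-175492500, minus) spans 433 kb. Rgs7 overlaps 1 other gene on its own strand, Rgs16 overlaps 1 on the opposite strand, and Rgs20 overlaps 2 on its own and 3 on the opposite strand. How reads in such shared stretches were counted is not given in the sources used here, so the UMIs of these 3 genes are less certain.

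The RefSeq promoter table (GRCm38.p6) held 5 of the 8 genes, Rgs2, Rgs4, Rgs5, Rgs7 and Rgs16. Their 250 bases before the start are shown, since Rgs4 and Rgs5 are neighbours and the genes did not all lead in the same cell class. Rgs4, Rgs5 and Rgs7 had their highest level in a fibroblast gate, Rgs16 in an endothelial gate and Rgs2 in a Ptprc gate. Capitals mark matches, on either strand, to the TATA box TATAAA, the CCAAT box, the GC box GGGCGG, the AP-1 motif TGANTCA, the core of the cyclic AMP response element, TGACG, and the PU.1-type ETS motif GAGGAAG. The windows were chr1:144004150-144004399 (minus), chr1:169747643-169747892 (minus), chr1:169655251-169655500 (plus), chr1:175492546-175492795 (minus) and chr1:153740103-153740352 (plus), written 5′ to 3′ along each gene.
Rgs2: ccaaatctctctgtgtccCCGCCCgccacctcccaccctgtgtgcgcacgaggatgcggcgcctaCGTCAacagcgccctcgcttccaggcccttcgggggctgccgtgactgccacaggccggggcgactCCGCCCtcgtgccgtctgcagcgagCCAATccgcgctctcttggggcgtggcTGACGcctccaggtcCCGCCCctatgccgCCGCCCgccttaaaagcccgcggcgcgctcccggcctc
Rgs4: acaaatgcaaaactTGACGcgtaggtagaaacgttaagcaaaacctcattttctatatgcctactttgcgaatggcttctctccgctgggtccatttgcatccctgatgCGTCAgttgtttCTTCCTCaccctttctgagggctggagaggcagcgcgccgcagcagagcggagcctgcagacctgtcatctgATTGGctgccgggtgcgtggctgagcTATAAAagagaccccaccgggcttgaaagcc
Rgs5: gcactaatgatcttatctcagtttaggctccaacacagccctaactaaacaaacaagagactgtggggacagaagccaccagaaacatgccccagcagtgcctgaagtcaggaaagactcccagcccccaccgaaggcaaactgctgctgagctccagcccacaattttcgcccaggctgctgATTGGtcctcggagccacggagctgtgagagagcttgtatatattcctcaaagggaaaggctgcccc
Rgs7: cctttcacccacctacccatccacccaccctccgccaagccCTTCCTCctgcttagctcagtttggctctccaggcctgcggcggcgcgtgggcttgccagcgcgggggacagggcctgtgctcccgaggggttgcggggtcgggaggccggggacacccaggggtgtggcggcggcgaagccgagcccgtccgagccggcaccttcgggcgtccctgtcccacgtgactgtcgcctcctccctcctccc
Rgs16: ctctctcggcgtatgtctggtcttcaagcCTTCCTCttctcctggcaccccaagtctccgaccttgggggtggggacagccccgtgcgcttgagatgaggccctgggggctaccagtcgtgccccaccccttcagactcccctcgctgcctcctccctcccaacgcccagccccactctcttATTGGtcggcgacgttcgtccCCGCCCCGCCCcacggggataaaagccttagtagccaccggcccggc

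The promoters of Rgs2 and Rgs7 were both 72.4% GC, with 30 and 22 CpG, against a median of 52.4% (quartiles 45.2% and 61.2%) and 6 CpG (2 and 16) over the 32851 windows of the table. Rgs16 had 66.4% GC and 17 CpG. Rgs4 and Rgs5 had 53.6% each, with 13 and 4 CpG. A CCAAT match stood in the windows of Rgs2, Rgs4, Rgs5 and Rgs16, between 53 and 94 bases before the start, and in 33.8% of all windows. Rgs4 alone of the 5 had TATAAA, 31 to 26 bases before the start (12.4% of all windows). GC boxes stood in Rgs2 (4 matches) and Rgs16 (2 that overlap by 1 base), against 32.7% of all windows, and TGACG stood in Rgs2 and Rgs4 (17.8%). GAGGAAG stood in Rgs4, Rgs7 and Rgs16 (10.6%), and the AP-1 letters in none of the 5 (6.75%). A match is a description of these letters and not a bound site.

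Levels are given as UMIs of the gene per 10000 of all UMIs in the cells of a group, with 95% exact Poisson intervals, and ratios of levels with 95% exact intervals. All intervals cover counting error only, not the spread between mice. A gene was taken as apart in a comparison when it had at least 20 UMIs over the groups and its level differed at least 2-fold. In such sums, fewer cells with a transcript and less transcript per cell cannot be told apart, so counts per cell are given for the main genes.

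The first comparison asked which RGS genes separated fibroblasts from endothelial cells. Rgs7 and Rgs5 were higher in fibroblasts, and Rgs16, Rgs20 and Rgs1 were higher in endothelial cells. Of the 6 members with at least 20 UMIs, 5 were thus apart, 2 higher and 3 lower in fibroblasts, where 34.8% of 2818 genes were apart (19.3% higher and 15.5% lower). For Rgs1, 36 of the 44 endothelial UMIs lay in cells that also held Ptprc. Without such cells Rgs1 had too few UMIs for the call. The members were chosen with earlier results of these data known. Their counts here and below are therefore a description and no test against the share of all genes. The median log2 ratio of fibroblasts to endothelial cells was −0.56 over the 6 members and 0.06 over all genes tested.

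**Figure D1:**
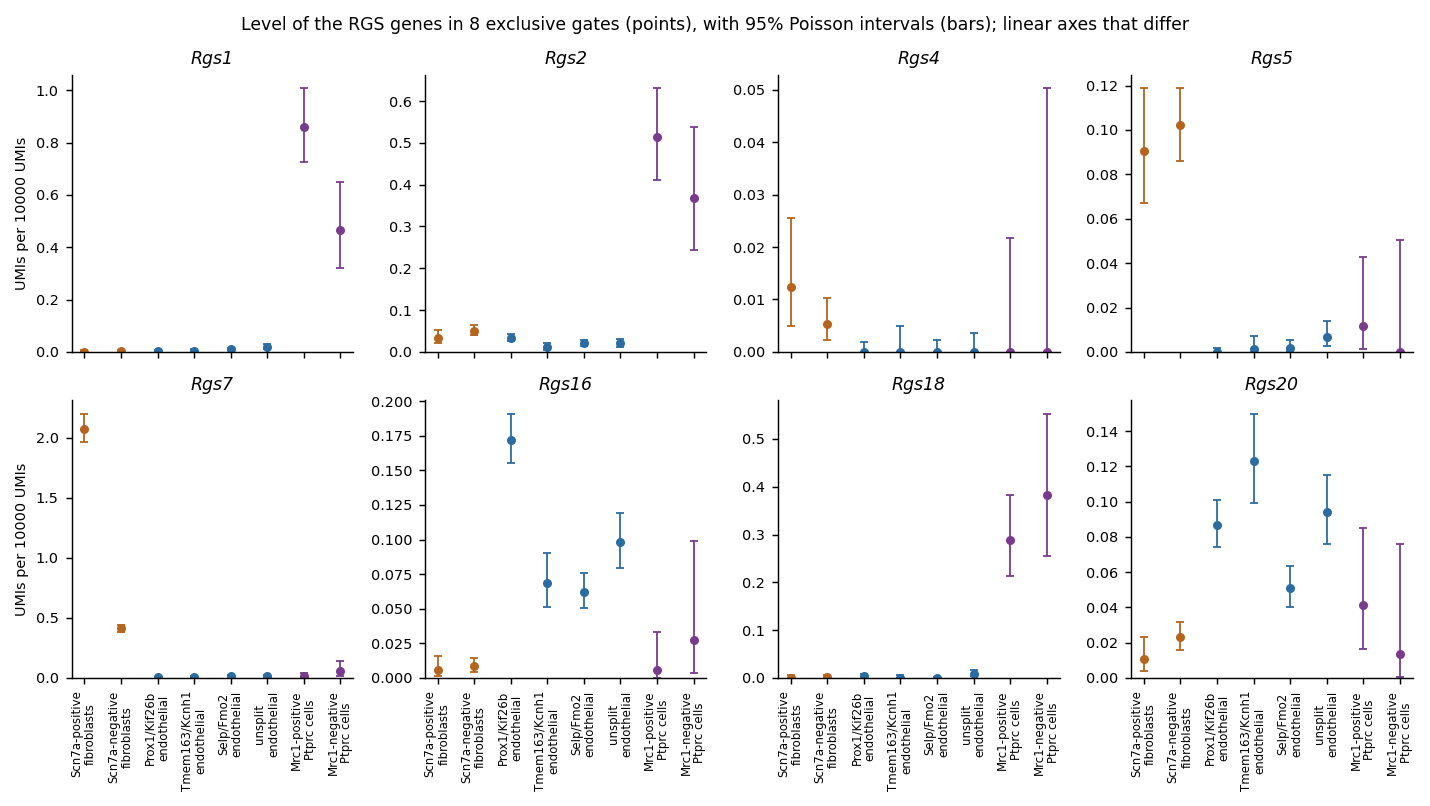
Level of each RGS gene (UMIs per 10000 UMIs, linear vertical axes that differ between panels) in 8 exclusive gates; points are pooled levels and bars 95% Poisson intervals. Rgs5 and Rgs7 stand highest in the fibroblast gates (brown), Rgs16 and Rgs20 in endothelial gates (blue), and Rgs1, Rgs2 and Rgs18 in the Ptprc gates (purple).

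Rgs7 had the highest ratio. Its level was 0.860 (0.821–0.901, 1799 UMIs) in fibroblasts and 0.00930 (0.00690–0.0123, 50 UMIs) in endothelial cells, a ratio of 92.6 (69.9–125). The intervals of the 2 levels lay far apart, and fibroblasts held 79.3% of all Rgs7 UMIs. A UMI of Rgs7 was found in 12.2% of fibroblasts (8.15% after thinning each cell to 2000 UMIs), at a median depth of 6063 UMIs per cell, against 0.357% of endothelial cells (0.179% thinned), at 5366.

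Within fibroblasts the Scn7a split set Rgs7 further apart. Scn7a encodes Nax, an atypical sodium channel. The level of Rgs7 was 2.07 (1.96–2.20, 1172 UMIs) in Scn7a-positive and 0.411 (0.379–0.444, 627 UMIs) in Scn7a-negative fibroblasts, a ratio of 5.05 (4.58–5.57). Both were above every other gate. Mrc1-negative Ptprc cells came next at 0.0547 (4 UMIs in 1 cell), then Selp/Fmo2 endothelial cells at 0.0172 and Mrc1-positive Ptprc and unsplit endothelial cells at 0.0118 each, with Tmem163/Kcnh1 cells at 0.00659 and Prox1/Kif26b cells at 0.00296. From the third place down, no gate differed from the next beyond counting error.

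Among the 4 members with enough UMIs in fibroblasts, Rgs7 was the one that was higher in Scn7a-positive cells, where 11.1% of 2479 genes were apart (4.56% higher, 6.53% lower). Rgs20 was lower there, with 0.0106 against 0.0229 and a ratio of 0.463 whose interval included 1 (0.159–1.11, 6 and 35 UMIs). Rgs5 (ratio 0.889, 0.634–1.23) and Rgs2 (0.658, 0.376–1.10) were not apart. The median log2 ratio was −0.39 over the 4 members and −0.03 over all genes tested.

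The level of Rgs7 by the amount of Scn7a was 0.411 in fibroblasts with no Scn7a UMI, 1.72 (1.51–1.94) with 1 UMI, 2.08 (1.81–2.38) with 2, 2.29 (2.04–2.57) with 3 to 4 and 2.20 (1.99–2.42) with 5 or more. The last 3 intervals overlapped, and the level with 1 UMI lay below those with 3 or more. The share of cells with Rgs7 moved likewise from 6.40% to 22.9%, 29.8%, 33.7% and 33.2%, and after thinning from 4.3% to 17.3%, 16.1%, 23.5% and 20.4%.

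Clusters built without the RGS genes set Rgs7 apart more than Scn7a did. Fibroblasts fell mainly into cluster 2, which had a Prg4 level of 17.3 and an Scn7a level of 0.263, and cluster 5, with a Prg4 level of 1.93 and an Scn7a level of 5.0. In cluster 5, Rgs7 was at 2.58 (2.43–2.74) in the 590 Scn7a-positive and 3.54 (3.15–3.98) in the 137 Scn7a-negative fibroblasts. In cluster 2 it was at 0.480 (0.370–0.612) in the 193 Scn7a-positive and 0.228 (0.203–0.254) in the 2166 Scn7a-negative fibroblasts. The order of the Scn7a gates was thus opposite in the 2 clusters, and within either gate cluster 5 had the higher level. The opposite order came from the first run of barcodes, with 2.54 in Scn7a-positive and 3.64 in Scn7a-negative cluster 5 fibroblasts. In the second run these levels were 2.83 (2.39–3.34) and 1.40 (0.456–3.28, 5 UMIs in 5 cells), with overlapping intervals. Over all its 927 cells cluster 5 held 1645 of the 2270 Rgs7 UMIs, a level of 2.64 (2.52–2.77).

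**Figure D2:**
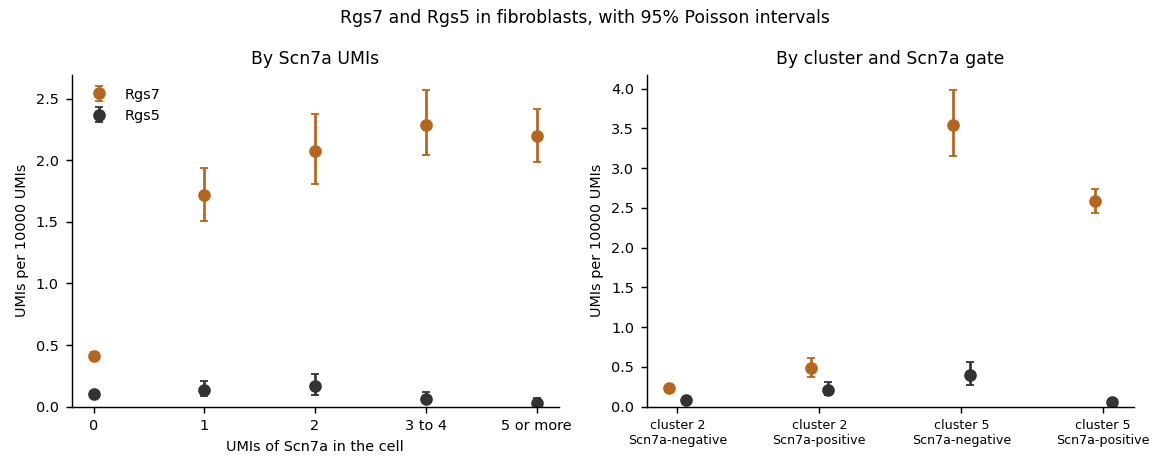
Levels of Rgs7 (brown) and Rgs5 (black) in fibroblasts, in UMIs per 10000 UMIs on linear axes, by the number of Scn7a UMIs in the cell (left) and by cluster and Scn7a gate (right), with 95% Poisson intervals. Rgs7 goes from 0.411 without Scn7a to between 1.72 and 2.29 with it, and is higher in cluster 5 than in cluster 2 in both Scn7a gates.

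Rgs7 came in many UMIs from few cells. The 385 fibroblasts with Rgs7 held 4.67 UMIs each (median 3, highest 42), and the 41 cells with 11 or more held 38.1% of the UMIs. Cdh19, a Schwann cell cadherin, was at 1.10 (0.980–1.23) in the fibroblasts with Rgs7 and 0.807 (0.767–0.850) in those without. Its level was 1.31 (1.21–1.40) in Scn7a-positive and 0.675 (0.634–0.718) in Scn7a-negative fibroblasts. The summed level of the mural cell genes was 3.81 in Scn7a-positive and 2.27 in Scn7a-negative fibroblasts, and 4.29 in cluster 5 and 2.0 in cluster 2, with none at 0. Over all fibroblasts Itga8 gave most of this sum. In the fibroblasts without Rgs5 it had 4978 UMIs, against 411 for Lmod1, 40 for Myl9 and 4 for Des. The part of these cell types in the Rgs7 levels was not tested.

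Rgs5, widely used as a marker of pericytes, was the other member higher in fibroblasts. Its level was 0.0985 (0.0855–0.113, 206 UMIs) there and 0.00205 (0.00102–0.00366, 11 UMIs) in endothelial cells, a ratio of 48.2 (26.4–98.0). Scn7a-negative fibroblasts had 0.102 (0.0862–0.119) and Scn7a-positive fibroblasts 0.0903 (0.0672–0.119), which overlapped. All other gates were lower, with 2 UMIs in Mrc1-positive Ptprc cells (0.0118), 7 in unsplit endothelial cells (0.00686), 3 in Selp/Fmo2 cells (0.00191), 1 in Tmem163/Kcnh1 cells (0.00132) and 0 in Prox1/Kif26b cells, which allows up to 0.00148, and in Mrc1-negative Ptprc cells, which allows up to 0.0410. None of these lower gates differed from the next beyond counting error.

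The UMIs of Rgs5 were spread unevenly over cells. A UMI was found in 95 fibroblasts, 3.02% (1.37% thinned), against 0.10% of endothelial cells (0.0119% thinned). Of these cells 58 had 1 UMI, and the 4 cells with 11 or more held 28.6% of the UMIs. In the 2 fibroblast clusters the levels were alike, 0.101 (0.0893–0.115) in cluster 2 and 0.104 (0.0806–0.133) in cluster 5. The shares of cells with Rgs5 were not, at 3.35% (2.82–3.94%) in cluster 2 and 0.971% (0.445–1.83%) in cluster 5 (1.65% and 0.547% thinned). In cluster 5, 9 cells held 65 UMIs. Scn7a was at 0.651 (0.478–0.865) in fibroblasts with Rgs5 and 1.46 (1.41–1.52) in those without. The levels of Rgs5 in cluster 5 also differed by gate. In Scn7a-negative cluster 5 fibroblasts 33 UMIs in 3 cells gave a level of 0.402 (0.277–0.565), while Scn7a-positive cluster 5 fibroblasts had 0.0521 (0.0327–0.0789). Values resting on so few cells are less certain than their counting intervals show.

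Mural cell genes did not differ beyond counting error between fibroblasts with and without Rgs5. The myosin light chain gene Myl9 and the desmin gene Des had 1 UMI each in the 95 fibroblasts with Rgs5 (level 0.0138, 0.000350–0.0771). In the others they had 40 and 4 UMIs (0.0198 and 0.00198). With 1 UMI each, these 2 genes could show only a very large difference. Itga8 was at 2.20 (1.87–2.57) with Rgs5 and 2.47 (2.40–2.54) without, and Lmod1 at 0.221 (0.127–0.360) and 0.204 (0.184–0.224). The list of 5 mural genes, 4 of them in the matrix, summed to 2.68 in fibroblasts, 0.0814 in endothelial cells and 0.412 in Ptprc cells. In fibroblasts the sum came mostly from Itga8. The part of the list in the Rgs5 levels was not tested.

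Rgs4, which acts on Gi and Gq proteins and lies next to Rgs5, was near the limit of detection. It had 15 UMIs in fibroblasts (level 0.00717, 0.00402–0.0118), 0 in endothelial cells, which allows up to 0.000558, and 0 in Ptprc cells, which allows up to 0.0124. The fibroblast level was 12.9-fold the endothelial floor of 3 counts, and the exact interval of the ratio to endothelial cells began at 9.23. Rgs4 had too few UMIs for the 2-fold call. All 15 fibroblast UMIs came from the first run of barcodes. Scn7a-positive and Scn7a-negative fibroblasts had 7 and 8 UMIs, levels of 0.0124 and 0.00524 that did not differ beyond counting error (ratio 2.36, 0.729–7.46).

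The 2 neighbouring genes were found in the same cells in a few cases. Of the 12 fibroblasts with Rgs4, 3 also had Rgs5 (25%), against 2.93% of the other fibroblasts. The level of Rgs4 was 0.0831 (0.0305–0.181, 6 UMIs) in fibroblasts with Rgs5 and 0.00446 (0.00204–0.00846, 9 UMIs) in those without. Rgs5 and Rgs7 showed the opposite: 3 of 385 fibroblasts with Rgs7 had Rgs5, 0.779% against 3.33% of the others (0.402% against 1.46% thinned), at median depths of 6406 and 6001 UMIs. With 3 cells in each overlap these shares are a description.

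Rgs16, which acts on Gi and Gq proteins, was the member with the largest ratio toward endothelial cells. Its level was 0.111 (0.103–0.121, 599 UMIs) in endothelial cells and 0.00765 (0.00437–0.0124, 16 UMIs) in fibroblasts, 14.6-fold higher (8.89–25.6). Endothelial cells held 85.2% of its UMIs. A UMI was found in 4.80% of endothelial cells (1.94% thinned) and 0.476% of fibroblasts (0.164% thinned).

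The endothelial gates differed among themselves in Rgs16. Prox1/Kif26b cells were highest at 0.172 (0.155–0.191), followed by unsplit cells at 0.0980 (0.0797–0.119), Tmem163/Kcnh1 cells at 0.0686 (0.0512–0.0899) and Selp/Fmo2 cells at 0.0623 (0.0505–0.0759). The first was above the second (1.76-fold, 1.40–2.22) and the second above the third (1.43-fold, 1.01–2.04), while the last 2 did not differ beyond counting error. Against the other split endothelial cells, Rgs16 was 2.68-fold higher (2.21–3.27) in Prox1/Kif26b cells and at 0.432 of their level (0.343–0.540) in Selp/Fmo2 cells. Among the 4 largest clusters of endothelial cells the level was 0.148 in cluster 1, where the Kif26b level was 6.29, 0.105 in clusters 3 and 7, where Tmem163 was at 1.33 and 1.13, and lowest, at 0.0346, in cluster 4, where Fmo2 was at 22.0. In Ptprc cells and fibroblasts the levels lay between 0.00531 and 0.0273, on 1 to 13 UMIs a gate, and the step down to the highest of them was within counting error.

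Rgs16 was mostly found as single UMIs: 329 of the 430 endothelial cells with it (76.5%) had 1, and the highest count was 7. It also did not climb evenly with Prox1 and Kif26b, with 0.0717 in endothelial cells without either, 0.128 (0.106–0.154) with 1 UMI of the pair, 0.0892 (0.0640–0.121) with 2, 0.146 (0.116–0.181) with 3 to 4 and 0.166 (0.143–0.191) with 5 or more.

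Rgs20 was also higher in endothelial cells, but less far from fibroblasts. Its level was 0.0827 (0.0752–0.0908, 445 UMIs) in endothelial cells and 0.0196 (0.0141–0.0266, 41 UMIs) in fibroblasts, a 4.22-fold difference (3.06–5.96). Of the endothelial cells 2.70% had a UMI (1.25% thinned) and of the fibroblasts 0.730% (0.327% thinned). The ratio depended on the run of barcodes: it was 6.43-fold in the first run and 1.18-fold, short of 2-fold, in the second, where fibroblasts had 18 UMIs and a level of 0.0839.

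The order of the endothelial gates differed from that of Rgs16. Tmem163/Kcnh1 cells were highest in Rgs20 at 0.123 (0.0990–0.150), followed by unsplit cells at 0.0940 (0.0762–0.115) and Prox1/Kif26b cells at 0.0869 (0.0745–0.101), and neighbours in this order did not differ beyond counting error. Selp/Fmo2 cells were lowest at 0.0508 (0.0403–0.0633), below Prox1/Kif26b cells by 1.71-fold (1.31–2.26). Mrc1-positive Ptprc cells (0.0412, 7 UMIs), Scn7a-negative fibroblasts (0.0229), Mrc1-negative Ptprc cells (0.0137, 1 UMI) and Scn7a-positive fibroblasts (0.0106) followed without a step beyond counting error. Tmem163/Kcnh1 cells had 1.72-fold (1.35–2.19) and Selp/Fmo2 cells 0.526 (0.405–0.677) of the Rgs20 level of the other split endothelial cells, both short of 2-fold.

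Of the 242 endothelial cells with Rgs20, 141 had a single UMI and 1 had 11. Rgs16 and Rgs20 rarely met in a cell: 14 cells had both, 3.26% of the endothelial cells with Rgs16 against 2.67% of those without (0.613% and 1.26% thinned), at median depths of 7318 and 5300 UMIs.

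**Figure D3:**
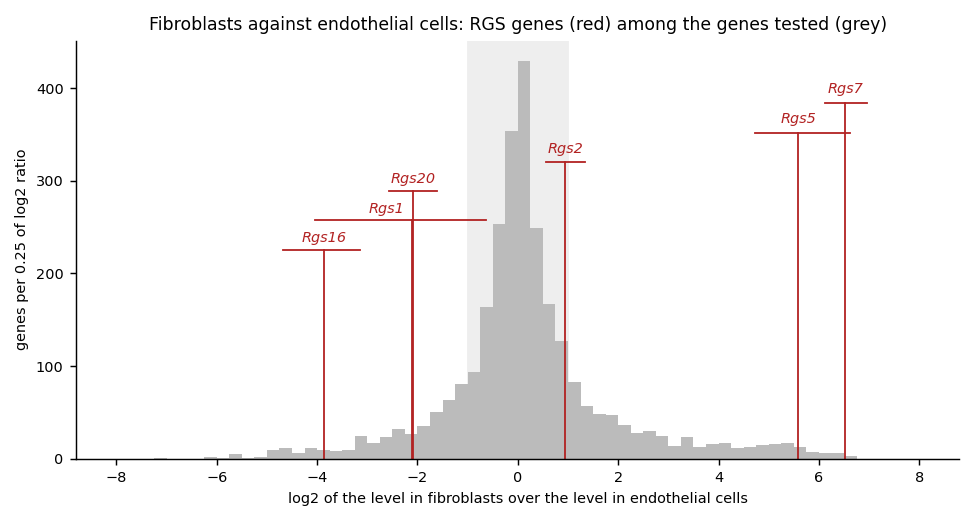
Histogram of the log2 ratio of fibroblasts to endothelial cells over the genes tested (grey, in bins of 0.25, genes with 0 UMIs in either group left out), with the 6 RGS genes that had at least 20 UMIs (red lines, with 95% intervals as horizontal bars) and the range within 2-fold shaded. Rgs5 and Rgs7 lie far to the right, Rgs1, Rgs16 and Rgs20 to the left, and Rgs2 just inside 2-fold.

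In Ptprc cells the leading members were others. Rgs1, Rgs18 and Rgs2 were higher there than in fibroblasts and endothelial cells together, and Rgs5, Rgs7 and Rgs16 were lower. Of 7 members with at least 20 UMIs, 6 were apart, 3 in each direction, where 43.3% of 2860 genes were apart (17.3% higher and 26.0% lower). The median log2 ratio was −0.98 over the members and −0.12 over all genes tested. The lower values rested on 2 UMIs of Rgs5 (ratio 0.283, 0.0341–1.04), 3 of Rgs16 (0.150, 0.0309–0.440) and 6 of Rgs7 (0.0998, 0.0366–0.218) in Ptprc cells, and Rgs20, with 8, was just short of 2-fold (0.506, 0.217–1.01).

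Rgs1 encodes a lymphocyte and macrophage RGS protein that dampens chemokine receptor signaling. Its level was 0.741 (0.637–0.858, 180 UMIs) in Ptprc cells against 0.00643 (0.00474–0.00852, 48 UMIs) in fibroblasts and endothelial cells, a ratio of 115 (83.5–162). Mrc1-positive Ptprc cells, which carry the mannose receptor of tissue macrophages, had 0.860 (0.726–1.01) and Mrc1-negative cells 0.465 (0.322–0.649), a 1.85-fold difference (1.27–2.77). Unsplit endothelial cells followed at 0.0206 (21 UMIs), Selp/Fmo2 cells at 0.0102 (16), Tmem163/Kcnh1 cells at 0.00264 (2), Scn7a-negative fibroblasts at 0.00262 (4) and Prox1/Kif26b cells at 0.00247 (5). Scn7a-positive fibroblasts had 0 UMIs, which allows up to 0.00531. Unsplit cells were above Selp/Fmo2 cells by 2.02-fold (1.01–4.15), and no lower step went beyond counting error.

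Most Rgs1 and Rgs18 UMIs in fibroblasts and endothelial cells lay in cells that also held Ptprc. The 163 endothelial cells with a UMI of Ptprc held 36 of the 44 endothelial UMIs of Rgs1 and 14 of the 15 of Rgs18, and the 74 fibroblasts with a UMI of Ptprc held 3 of the 4 and 3 of the 3. Without these cells, endothelial Rgs1 came to 8 UMIs (0.00152), which was too few for the 2-fold call toward endothelial cells (4.28-fold, 1.56–16.4, in all cells), and the Ptprc ratio of Rgs1 became 600. The whole list of leukocyte markers, 12 of 13 in the matrix, summed to 54.3 in Ptprc cells, 0.698 in endothelial cells and 0.617 in fibroblasts, with no marker at 0. It was at 1.53 in unsplit endothelial cells and between 0.350 and 0.590 in the split gates. The same holds for the differences of Rgs1 between endothelial gates, which rested on 2 to 16 UMIs a gate: its ratio to the other split cells was 4.04 (1.57–11.6) in Selp/Fmo2 cells, 0.320 (0.0928–0.894) in Prox1/Kif26b cells and 0.452 (0.0514–1.85) in Tmem163/Kcnh1 cells, and none of them had enough UMIs left without the cells that held Ptprc.

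Rgs18 is known from platelets, megakaryocytes and other blood cells. Its level was 0.317 (0.25–0.396, 77 UMIs) in Ptprc cells against 0.00241 (18 UMIs) in fibroblasts and endothelial cells, a ratio of 132 (78.0–234). Mrc1-negative Ptprc cells had 0.383 (0.254–0.553) and Mrc1-positive cells 0.289 (0.214–0.382), the reverse of the order of Rgs1, but within counting error (1.33-fold, 0.802–2.15). Unsplit endothelial cells had 8 UMIs (0.00784), Prox1/Kif26b cells 7 (0.00346) and Scn7a-negative fibroblasts 3 (0.00197), and the other 3 gates had 0. Between fibroblasts (3 UMIs) and endothelial cells (15 UMIs) it was too low for the 2-fold call. Tubb1, the platelet tubulin and the 1 gene of the platelet list in the matrix, had 0 UMIs in all 16383 cells. In Ptprc cells this allows up to 0.0124. Tubb1 could therefore not tell any gate apart, and the part of platelet RNA in the Rgs18 levels was not tested.

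Rgs2, which favours Gq and limits vasoconstrictor signals, had UMIs less confined to 1 cell class than those of any other member. Its level was 0.469 (0.387–0.564, 114 UMIs) in Ptprc cells against 0.0303 (0.0264–0.0345, 226 UMIs) in fibroblasts and endothelial cells, a ratio of 15.5 (12.3–19.5). Ptprc cells held 27.7% of its UMIs, endothelial cells 31.3% and fibroblasts 23.5%. These shares also follow the sizes of the classes, 470, 8966 and 3149 cells. By level Rgs2 was further apart between classes (0.0464 in fibroblasts and 0.0240 in endothelial cells) than Rgs20. That gene was at 0.0827 in endothelial cells, 0.0329 in Ptprc cells and 0.0196 in fibroblasts. Mrc1-positive (0.513, 0.411–0.632) and Mrc1-negative Ptprc cells (0.369, 0.243–0.537) did not differ beyond counting error, and both were above every other gate. Scn7a-negative (0.0511) and Scn7a-positive fibroblasts (0.0336), Prox1/Kif26b (0.0336), unsplit (0.0206), Selp/Fmo2 (0.0203) and Tmem163/Kcnh1 cells (0.0106) followed, and no step between neighbours went beyond counting error.

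A single cell moved the endothelial values of Rgs2. One Prox1/Kif26b endothelial cell of the first run held 53 of the 412 Rgs2 UMIs, at 9427 UMIs in all, 3 of Egfl7 and 0 of Ptprc, while the next highest cell had 8. With this cell, the fibroblast level of Rgs2 (0.0464, 0.0376–0.0566) was 1.93-fold (1.47–2.54) the endothelial level (0.0240, 0.02–0.0285). Without it, the endothelial level was 0.0141 and the ratio 3.28, and without the cells that held Ptprc the ratio was 2.18. Among endothelial gates, the ratio of Rgs2 in Prox1/Kif26b cells to the other split cells was 1.96 (1.31–2.97) with the cell and 0.432 without it, in Tmem163/Kcnh1 cells 0.380 (0.160–0.778) and 0.808, and in Selp/Fmo2 cells 0.745 (0.477–1.14) and 2.46. The order of the endothelial gates in Rgs2 thus rested on this cell.

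In Ptprc cells, Rgs2 was mostly found as single UMIs (65 of 85 cells), and the 65 cells with Rgs1 held 2.77 UMIs of it each, with up to 16. The share of Ptprc cells with a UMI was 13.8% for Rgs1 (10.1% thinned), 18.1% for Rgs2 (10.1% thinned) and 9.36% for Rgs18 (3.37% thinned), at a median depth of 4851 UMIs. Fibroblasts, as cells of another class, had 0.127%, 2.35% and 0.0953% (0.0327%, 0.949% and 0.0327% thinned). Rgs1 and Rgs2 were found together in 20 Ptprc cells, 30.8% of the cells with Rgs1 against 16.0% of the others (16.7% and 9.36% thinned), whereas Rgs1 and Rgs18 shared 5 cells (7.69% against 9.63%).

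Among the 167 Mrc1-negative Ptprc cells, 35 had a UMI of a T cell gene. Rgs1 was at 0.833 (0.430–1.45) in them and 0.374 (0.235–0.567) in the other 132, with overlapping intervals. Rgs2 had 0 UMIs in the 35 cells, which allows up to 0.208, and 0.460 (0.303–0.669) in the others. Rgs18 had 1 UMI (0.0694, 0.00176–0.387) against 0.460 (0.303–0.669, 27 UMIs). The summed level of the T cell list, 4 of 5 genes in the matrix, was 2.73 in Mrc1-negative and 0.0471 in Mrc1-positive Ptprc cells.

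**Figure D4:**
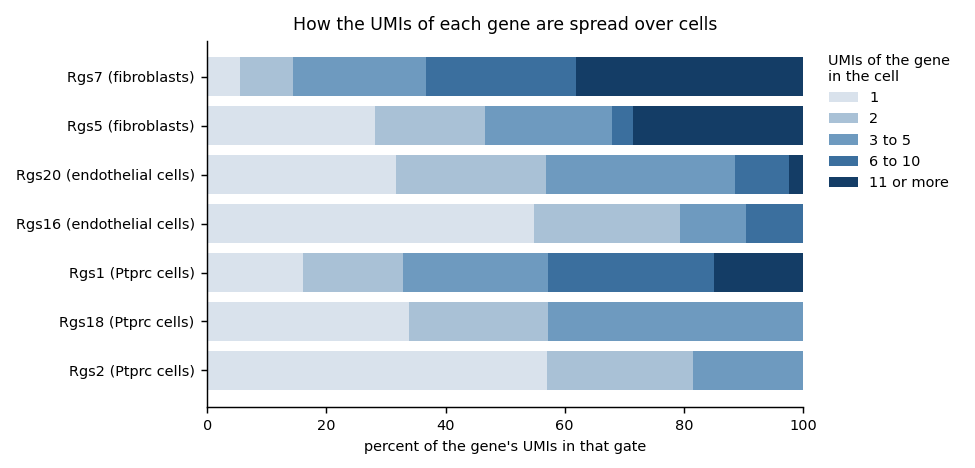
Share of each gene's UMIs in its leading gate (horizontal axis, percent) that came from cells with 1, 2, 3 to 5, 6 to 10 or 11 or more UMIs of the gene (light to dark). Cells with 11 or more UMIs gave 38.1% of the UMIs of Rgs7 and 28.6% of those of Rgs5, while Rgs2 and Rgs18 had no cell with over 5 UMIs in Ptprc cells.

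Between the endothelial gates, Rgs16 was apart on many UMIs and the other members on few. In Prox1/Kif26b cells 3 of 5 members were apart (Rgs16 higher, Rgs1 and Rgs7 lower), where 10.8% of 2586 genes were (3.91% higher, 6.84% lower). In Tmem163/Kcnh1 cells 2 of 5 were apart (Rgs1 and Rgs2, both lower), where 14.1% were (5.14% higher, 8.97% lower), and in Selp/Fmo2 cells 3 of 5 (Rgs1 and Rgs7 higher, Rgs16 lower), where 9.94% were (5.38% higher, 4.56% lower). Rgs7 was at 0.00296 (6 UMIs) in Prox1/Kif26b, 0.00659 (5) in Tmem163/Kcnh1 and 0.0172 (27) in Selp/Fmo2 cells, 4.34-fold (2.08–9.70) higher in the last than in the other split cells. The 3 comparisons share cells, so the 3 counts are not independent. The median log2 ratio of the 5 members was 0.23, −0.86 and −0.43 in the 3 comparisons, against −0.02, −0.06 and 0.00 over all genes tested.

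The 2 runs of barcodes, which may be different libraries, differed in some members. Of 25 pairs of a member and a gate with at least 20 UMIs, 9 had a ratio between runs whose interval did not include 1. Rgs7 in Scn7a-negative fibroblasts was at 0.447 in the first run and 0.0437 (6 UMIs) in the second, 10.2-fold apart (4.67–28.0), while in Scn7a-positive fibroblasts it was at 2.08 and 2.03. Cluster 5 made up 6.07% of the Scn7a-negative fibroblasts in the first run and 2.73% in the second, and within cluster 2 the Scn7a-negative level was 0.25 (318 UMIs) and 0.00779 (1 UMI). The Scn7a ratio of Rgs7 was therefore 46.6 within the second run. It rested on 6 UMIs in 2 of 183 Scn7a-negative and 157 UMIs in 23 of 91 Scn7a-positive fibroblasts, so its size is uncertain.

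Rgs2 was also higher in the first run in Prox1/Kif26b (7.25-fold, 2.37–36.1, with the 53 UMIs of a single cell) and Selp/Fmo2 cells (4.12-fold, 1.05–35.6), whereas in unsplit endothelial cells it was 5.75-fold (2.19–14.9) higher in the second.

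The other 5 pairs were higher in the second run. Rgs1 in unsplit endothelial cells was 12.7-fold (4.78–37.0) higher there, on 14 UMIs against 7. Rgs20 in Scn7a-negative fibroblasts was 8.52-fold (4.10–17.5) higher in the second run (0.117 against 0.0137), and in Tmem163/Kcnh1 cells 2.71-fold (1.47–4.68) higher (0.296 against 0.109). Rgs5 in Scn7a-positive fibroblasts was 2.63-fold (1.34–4.93) and Rgs1 in Mrc1-positive Ptprc cells 2.20-fold (1.57–3.08) higher in the second run. Rgs16 in Prox1/Kif26b cells (0.163 and 0.201), Rgs2 in Ptprc cells (0.459 and 0.493) and Rgs18 in Ptprc cells (0.340 and 0.266) did not differ between runs beyond counting error. Over all endothelial cells, however, Rgs16 was 1.34-fold (1.11–1.62) higher in the second run (0.140 against 0.104). Whether genotype, treatment or preparation moved with the runs was not tested.

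**Figure D5:**
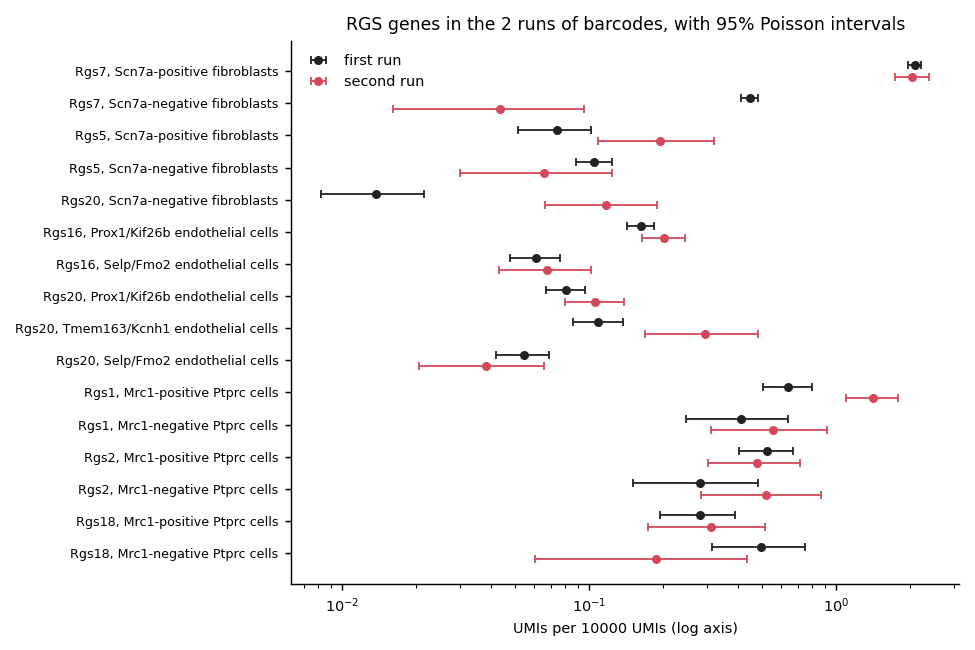
Levels of RGS genes (UMIs per 10000 UMIs, logarithmic axis) in the first (black) and second (red) run of barcodes, for 16 pairs of a gene and a gate, with 95% Poisson intervals. Rgs7 and Rgs20 in Scn7a-negative fibroblasts lie apart in opposite directions, while Rgs7 in Scn7a-positive fibroblasts overlaps.

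Other genes of G protein signaling were read from a list of 41 genes besides RGS genes, 20 of them in the matrix. Between fibroblasts and endothelial cells 16 had enough UMIs, of which 9 were higher and 2 lower in fibroblasts, with a median log2 ratio of 1.07, where 19.3% of all 2818 genes were higher and 15.5% lower and the median was 0.06. The largest ratios toward fibroblasts were those of the chemokine receptor Cxcr4 (6.63, 3.84–11.9), the adenosine receptor Adora1 (5.01, 2.81–9.22), the beta subunit Gnb4 (4.03, 3.82–4.24) and the Gi modulator Gpsm1 (3.74, 3.51–3.99). The scavenging chemokine receptor Ackr3 (9.02-fold, 8.23–9.90) and the ADP receptor P2ry1 (2.54-fold, 2.04–3.20) were higher in endothelial cells.

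In Ptprc cells, 17 genes of the list had enough UMIs, 7 higher and 9 lower than in fibroblasts and endothelial cells, with a median log2 ratio of −1.14, where 17.3% of all 2860 genes were higher and 26.0% lower and the median was −0.12. The largest ratios were those of the nucleotide receptors P2ry13 (117, 57.1–263) and P2ry12 (64.6, 54.9–76.1), the phospholipase Plcb2 (87.9, 64.4–121) and the receptor accessory protein Ramp1 (44.4, 28.5–69.9). Among the lower genes, P2ry1 was 11.2-fold (3.08–92.3), Plcb4 5.98-fold (5.24–6.87), Ackr3 5.81-fold (4.56–7.54) and Plcb1 4.70-fold (4.25–5.21) higher in the other cells. Adora1, also counted as lower, had 0 UMIs in Ptprc cells, where a count of 0 allows up to 0.0124, above its level of 0.0075 in the other cells.

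Of the other RGS genes listed, Rgs13 had 3 UMIs in all. Rgs19, an RZ family gene on chromosome 2, was 5.01-fold (3.97–6.25) higher in Ptprc cells and was not apart between fibroblasts (0.0474) and endothelial cells (0.0866). Rgsl1, an RGS-like gene 33.9 kb from Rgs16, was 3.45-fold (2.63–4.53) higher in fibroblasts, the opposite direction from Rgs16.

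For 7 members, all but Rgs4, the genes with the most similar pattern were read from 2708 genes with at least 50 UMIs, by Pearson's r of log2(level + 0.01) over the 8 gates, which share their libraries. Rgs1 was most like E330020D12Rik (r = 0.994), Fcgr3 (0.994) and Slc28a2 (0.993), and Rgs18 most like Stx16 (0.998), Cass4 (0.996) and Plcb2 (0.995). Rgs2 was most like Xpr1 (0.991), Agps (0.990) and Itpripl1 (0.986). In the fibroblast genes, Rgs7 was most like Ccn5 (0.989), Entpd2 (0.989) and 1700019D03Rik (0.980), and Rgs5 most like Gm37679 (0.989), 1110051M20Rik (0.983) and E030013I19Rik (0.980). In the endothelial genes, Rgs16 was most like Ecm1 (0.975) and Inafm2 (0.973), and Rgs20 most like St6galnac4 (0.987), 4731419I09Rik (0.956) and Fam83d (0.954). With 8 points, most of them near the same low level for a gene of 1 class, such values describe the shape of a pattern over the gates and no more. They do not show its size. Stx16 ran only from 1.22 to 2.52 over the gates, Xpr1 from 0.910 to 1.93, 1110051M20Rik from 0.519 to 1.71 and St6galnac4 from 0.101 to 0.303. These genes were thus found in every gate.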

How the data were processed

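Mitral valves were profiled by 10x Genomics 3' v3 sequencing. The submitters' processing notes name Cell Ranger 7.1.0 and mm10, and according to the methods the authors filtered cells and genes in Seurat and normalized with LogNormalize. Each deposited value, from a table the authors pooled over libraries, is on the natural log scale: 1 is added to a cell's UMIs per 10000 before the log is taken. UMIs and cell totals were recovered from them, whole within 0.02 for 100% of values. A median of 841 UMIs per cell fell on listed genes. The 1 listed gene lacking a value in some cells was left out.

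The members, the gates and all gene lists were chosen with earlier results of these data known, and every member is named. Levels, intervals and ratios were computed as the report describes, with a 95% level and a floor of 3 counts for a 0 (Python 3.11.15, numpy 2.4.6, pandas 2.3.3, scipy 1.17.1, scikit-learn 1.9.0, scanpy 1.11.5 and igraph 0.11.9). A pooled matrix gives no replicates, so no count model was fitted and no p-value computed. Besides the members, the 3 most similar genes per member were named (1 gene of Rgs16 and 1 marker gene are not reported here), and of the pathway list up to 4 genes apart in each direction by size. Cells were clustered on 2000 variable genes without the members, with 50 principal components, 15 neighbours and Leiden at resolution 0.5, which gave 12 clusters. No doublet caller was run, and the 421 cells with both fibroblast genes and Egfl7 were kept out of the gates. The code was tested on simulated data. Alternatives were stricter gates, clusters in place of gates, deeper cells, each run alone, means over cells, thinning, another denominator and other UMI minimums. Leaving out the cell with the most UMIs of each member, the fibroblasts and endothelial cells with Ptprc, and the barcodes found in both runs were added after seeing the data. Figures were drawn with matplotlib 3.10.9.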

Additional observations from a re-analysis of the deposited data

Results flagged for a closer look

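Members were also found in cells outside the comparisons, above the level that a count of 0 would allow there (0.00187 UMIs per 10000 in the 3377 ungated cells, 0.00824 in the 421 cells with both fibroblast genes and Egfl7). In ungated cells, which had a median of 4335 UMIs, the levels were 0.0348 for Rgs2, 0.00249 for Rgs4 (4 UMIs), 0.0560 for Rgs5, 0.164 for Rgs7, 0.0479 for Rgs16, 0.0056 for Rgs18 (9 UMIs) and 0.0908 for Rgs20, and Rgs1 had 0 UMIs. By cluster, Rgs7 was at 2.42 (2.08–2.80) in the 149 ungated cells of cluster 5 and Rgs5 at 0.139 (0.110–0.173) in the 1302 of cluster 2, while Rgs20 was at 0.198 (0.133–0.284) in the 401 of cluster 1 and 0.150 (0.120–0.186) in the 1052 of cluster 3. In the cells with both fibroblast genes and Egfl7, which had a median of 8709 UMIs, the levels were 0.0440 for Rgs2, 0.0467 for Rgs5, 0.418 for Rgs7, 0.0220 for Rgs16 and 0.0357 for Rgs20. Each of the last 4 lay between its levels in fibroblasts and in endothelial cells. Whether these cells are doublets was not tested.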

How the results depend on the processing

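The counts of members apart between fibroblasts and endothelial cells (5 as reported, 4 to 7 over the alternatives) and between Ptprc cells and both (6 as reported, 4 to 7) stayed within 1.5 times. Over all comparisons 58 of 75 alternative counts did so, and 17 moved, where counts were small. With no minimum of UMIs the count was 5 for the Scn7a split (2 as reported), 5 for Prox1/Kif26b cells (3) and 5 for Selp/Fmo2 cells (3), and with at least 100 UMIs it was 1 in each of these and in Tmem163/Kcnh1 cells (2), since fewer members were tested. The Scn7a count was also 1 in the first run, with means over cells and after thinning, the Prox1/Kif26b count 1 in the second run and after thinning, and the Tmem163/Kcnh1 count 1 with stricter gates, in the first run, after thinning, without the cell with the most UMIs and without cells holding Ptprc. The cause was not tested. Of 446 ratios of single members, 401 moved by less than their interval, 43 by more, and 2 reversed: Rgs5 in Ptprc cells in the second run (log2 ratio 0.42, on 2 UMIs) and Rgs2 in Tmem163/Kcnh1 cells after thinning (0.40, on 4 UMIs). Rgs5, Rgs7 and Rgs16 between fibroblasts and endothelial cells were called the same way in 13 of 13 alternatives, Rgs1 and Rgs2 in Ptprc cells in 14 of 14, and Rgs7 by Scn7a in 12 of 12, as was Rgs16 in Prox1/Kif26b and in Selp/Fmo2 cells. Rgs18 in Ptprc cells was called in 13 of 14 and Rgs20 between fibroblasts and endothelial cells in 12 of 13. Rgs7 and Rgs16 in Ptprc cells were called in 13 and 12 of 14 and Rgs5 in 12 of 14. Calls held less often for Rgs1 between fibroblasts and endothelial cells (9 of 13) and, of 12 alternatives each, for Rgs20 by Scn7a (6), for Rgs7 in Prox1/Kif26b and Selp/Fmo2 cells (9 each), for Rgs2 in Tmem163/Kcnh1 cells (9) and for Rgs1 in Prox1/Kif26b, Selp/Fmo2 and Tmem163/Kcnh1 cells (7, 7 and 6). No paired analysis was possible because barcodes could not be traced to numbered samples, and for the same reason no library was left out in turn. At this depth most members were found in few cells, and values on under 20 UMIs cannot show a difference smaller than their intervals.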
